A study of Mus musculus with 27 samples.

Results

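The genes described here are 10 members of the acute phase response: the serum amyloid A genes Saa1, Saa2, Saa3 and Saa4, the orosomucoid genes Orm1 and Orm2, haptoglobin (Hp), serum amyloid P (Apcs), lipocalin 2 (Lcn2) and the interleukin-1 receptor Il1r1. They were chosen by gene name from the 45706 genes of the deposited table, with earlier results of these data known. Counts of members set beside shares of all genes are therefore descriptions. All 10 were found and all 10 passed the filter on low values. The livers came from wild-type mice of a strain labelled C57/BLN6, with no age or sex given in the sources used here. One group of mice was fasted for 16 h. The other groups were fasted for the same 16 h and then either refed or given caged food, food that could be sensed but not eaten, for 30, 60, 120 or 240 min. Each of the 9 groups held 3 biological replicates, so 27 polyadenylated RNA libraries were compared. The fasting was shared by all 9 groups, and no group of fed mice was analysed here. The study asked how the perception of food, and its ingestion, act on the liver.

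Acute phase proteins are plasma proteins that hepatocytes make in greater amounts during inflammation, infection or injury. Interleukin-6, acting through STAT3, and interleukin-1, acting through NF-kappaB, switch on their genes, and C/EBP factors bind many of the same promoters. Saa1 and Saa2 travel on high-density lipoprotein and are among the most inducible genes of the liver, whereas Saa4 is the constitutive form of the family.

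Values are normalised read counts, that is, counts divided by 1 scaling factor per library. Libraries summed to between 40654573 and 50037562 normalised counts, with an estimated 25557102 to 52457514 reads behind them, and 1 read was worth 0.775 to 1.69 normalised counts. Albumin (Alb), the defining hepatocyte transcript, lay between 2293389 and 4761810 in the 27 libraries. In 2 libraries of 240 min, refed replicate 3 and caged food replicate 1, the treatment label named the other group than the title. Both were grouped by title. A score over 200 genes that separated refed from caged food at 120 min, none of them on the lists used here, was 0.864, 0.632 and 0.577 in the 3 libraries titled refed at 240 min and -0.719, -0.712 and -0.642 in the 3 titled caged food. Another library, caged food 60 min replicate 2, was the highest of the 27 in every one of the 10 members. Calls of members in the comparisons described below are therefore given both with it (27 libraries) and without it (26 libraries). It was picked out by the values of these same members. Leaving it out can narrow their spread more than that of other genes. Counts of members called with 26 libraries are therefore not evenly compared with the share of all genes. In bulk liver, fewer cells of a type and less RNA per cell cannot be told apart.

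After 240 min of refeeding, 5 of the 10 members rose against the fasted livers. Saa2 was 12.5-fold higher, Saa1 10.4-fold, Lcn2 10.2-fold, Orm2 6.94-fold and Apcs 3.12-fold. Among all 15932 genes tested, 24.3% were called in this comparison and 12.9% were called higher (limma, Benjamini-Hochberg adjusted p under 0.05). Without caged food 60 min replicate 2, Orm1 joined them, making 6 of 10 against 13.7% of all genes called higher and 25.8% called in either direction. Hp, Saa3, Saa4 and Il1r1 did not pass at 240 min with or without that library. The plot of members by group shows every library.

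**Figure D1:**
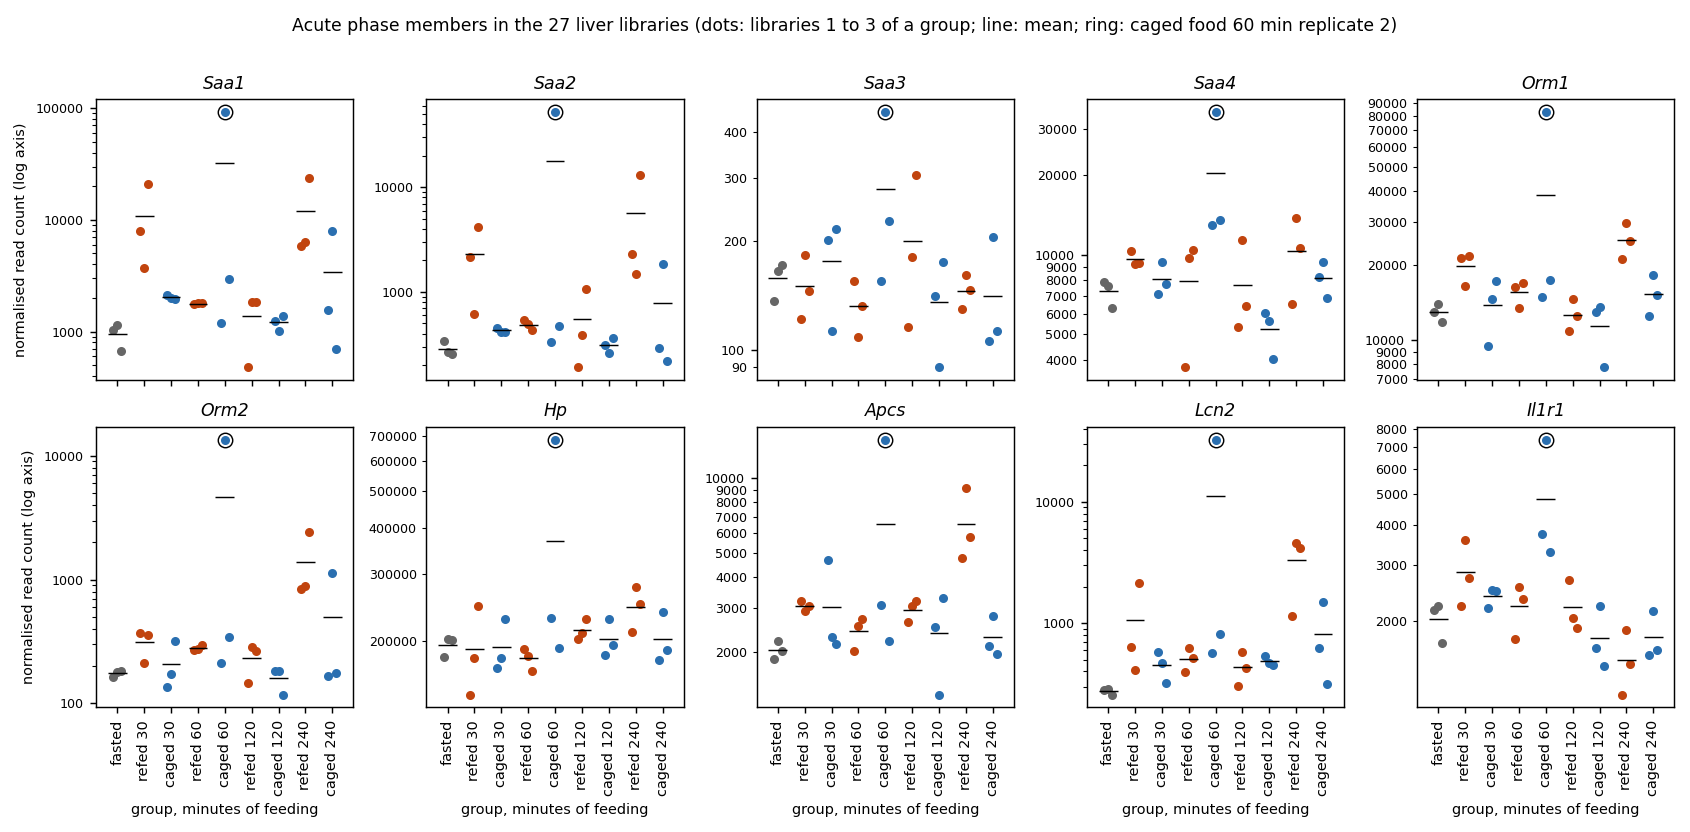
Normalised read counts (log axis) of the 10 members in each of the 27 libraries, by group and minutes of feeding, with dots for libraries, a line for the group mean and a ring around caged food 60 min replicate 2. The ringed library is the highest in all 10 panels, and the refed 240 min dots lie above all fasted dots in Saa1, Saa2, Orm1, Orm2, Hp, Apcs and Lcn2.

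Because Saa1, Saa2, Lcn2, Orm2 and Apcs carried the change at 240 min, the sequences before their RefSeq start sites are printed here (GRCm38.p6, 5' to 3' on the gene's strand). Bases that GENCODE M21 places in a transcript were left out, the last 43 before the RefSeq start of Saa2 and the last 58 before that of Lcn2. Saa1 lies at chr7:46742981-46743230 (minus strand), Saa2 at chr7:46751583-46751789 (plus), Orm2 at chr4:63362199-63362448 (plus), Lcn2 at chr2:32387798-32387989 (minus) and Apcs at chr1:172895055-172895304 (minus). Capitals mark matches to 4 motifs searched on both strands: NF-kappaB (GGGNNNNNCC), C/EBP (TTNNGNAA), STAT (TTCNNNGAA) and the interleukin-6 response element (CTGGGAA).
Saa1: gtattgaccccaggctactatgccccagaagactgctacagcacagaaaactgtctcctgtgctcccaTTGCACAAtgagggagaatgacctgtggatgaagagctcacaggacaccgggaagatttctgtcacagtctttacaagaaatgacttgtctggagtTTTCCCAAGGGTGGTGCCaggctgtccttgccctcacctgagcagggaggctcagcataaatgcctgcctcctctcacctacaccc
Saa2: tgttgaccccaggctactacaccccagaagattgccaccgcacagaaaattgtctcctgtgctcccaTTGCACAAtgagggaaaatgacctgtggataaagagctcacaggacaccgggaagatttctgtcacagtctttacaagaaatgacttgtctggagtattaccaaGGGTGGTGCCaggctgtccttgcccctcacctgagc
Orm2: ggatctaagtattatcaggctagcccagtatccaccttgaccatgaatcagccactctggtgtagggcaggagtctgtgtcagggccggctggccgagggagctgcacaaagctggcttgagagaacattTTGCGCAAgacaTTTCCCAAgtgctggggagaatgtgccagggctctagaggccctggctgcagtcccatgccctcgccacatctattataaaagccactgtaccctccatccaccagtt
Lcn2: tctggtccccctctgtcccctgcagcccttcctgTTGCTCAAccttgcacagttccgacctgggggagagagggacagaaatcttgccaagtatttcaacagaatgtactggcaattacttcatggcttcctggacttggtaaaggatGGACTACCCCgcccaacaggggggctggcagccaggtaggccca
Apcs: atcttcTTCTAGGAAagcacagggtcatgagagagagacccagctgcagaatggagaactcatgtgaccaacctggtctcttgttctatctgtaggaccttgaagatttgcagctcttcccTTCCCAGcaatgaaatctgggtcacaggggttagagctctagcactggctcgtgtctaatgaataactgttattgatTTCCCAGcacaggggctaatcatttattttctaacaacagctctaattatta

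Saa1 and Saa2 share 94.8% of the 250 bases before their starts, against 48.9% for Saa1 with Saa3 and 42.6% for Saa1 with Saa4. In Saa1 the NF-kappaB match spans bases -78 to -69 from the start and directly follows a C/EBP match at -86 to -79. In Saa2 the NF-kappaB match lies at -79 to -70 with no C/EBP match directly before it. Both genes hold a further C/EBP match, at -182 to -175 in Saa1 and -183 to -176 in Saa2. Lcn2 holds C/EBP at -216 to -209 and NF-kappaB at -102 to -93, and Orm2 holds C/EBP at -120 to -113 and -108 to -101. Apcs differs from the other windows printed: it holds a STAT match at -244 to -236 and interleukin-6 response elements at -129 to -123 and -52 to -46, with no match to NF-kappaB or C/EBP.

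RefSeq windows were matched for 8 of the 10 members, 9 windows in all because Il1r1 had 2. A member was counted if any of its windows held a match, whereas the shares of all promoters are per window. Il1r1 held the NF-kappaB letters in only 1 of its windows. NF-kappaB matches occurred in 5 of the 8 (Il1r1, Lcn2, Saa1, Saa2, Saa4), C/EBP in 7 of the 8 and each of the other 2 motifs in 1 of the 8. Among 32851 promoter windows of 250 bases, 45.8% hold the NF-kappaB letters, 36.8% the C/EBP letters, 7.02% the STAT letters and 9.10% the interleukin-6 response element. A match is a description of the letters and does not show binding.

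Saa1 and Saa2 encode the inducible serum amyloid A proteins. In GENCODE M21 (GRCm38) they lie on chromosome 7, Saa1 at chr7:46740497-46742980 (minus strand) and Saa2 at chr7:46751790-46754313 (plus), with 8809 bases between them. Their coding sequences are 95.1% identical and share 14.8% of 50-base windows, so reads could be split between them only where the sequences differ, and each value carries that uncertainty.

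Saa1 measured 1023, 1136 and 675 normalised counts in the fasted livers. After refeeding it measured 7918, 3687 and 21154 at 30 min, 1759, 1795 and 1788 at 60 min, 482, 1833 and 1841 at 120 min, and 5864, 6324 and 23631 at 240 min. With caged food it measured 2127, 2010 and 1959 at 30 min, 1200, 92023 and 2946 at 60 min, 1251, 1019 and 1384 at 120 min, and 1554, 7898 and 694 at 240 min. Every refed library of 30, 60 and 240 min lay above every fasted library, and 1 refed library of 120 min lay below them all. The caged food libraries of 240 min overlapped the fasted range, with replicate 2 far above its group.

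Saa1 rose by 3.37 ± 1.03 (log2 fold change ± SE) from fasted to refed 240 min, limma adjusted p = 0.0192 with 27 libraries and 0.000851 with 26. At refed 30 min the log2 fold change was 3.21 ± 1.03, limma adjusted p = 0.147 with 27 libraries, and 3.21 ± 0.69 with 26, adjusted p = 0.0137, where Saa1 alone of the members passed. At 30 min 1.63% of all genes were called with 27 libraries and 1.81% with 26. Leaving out refed 240 min replicate 3, the library whose labels conflict, gave 2.72 at 240 min, limma adjusted p = 0.0955. Leaving out fasted replicate 3 gave 3.15, adjusted p = 0.0669.

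Saa2 followed the same libraries at lower values. It measured 341, 265 and 255 normalised counts in the fasted livers. After refeeding it measured 2150, 612 and 4187 at 30 min, 534, 491 and 437 at 60 min, 192, 390 and 1056 at 120 min, and 2307, 1500 and 13145 at 240 min. With caged food it measured 450, 418 and 417 at 30 min, 331, 52174 and 473 at 60 min, 314, 261 and 367 at 120 min, and 293, 1861 and 219 at 240 min. Refed 240 min replicate 3 was the highest library after caged food 60 min replicate 2 in both genes.

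Saa2 rose by 3.64 ± 1.22 on the log2 scale from fasted to refed 240 min, limma adjusted p = 0.0319 with 27 libraries and 0.00085 with 26. At refed 30 min its log2 fold change was 2.63, limma adjusted p = 0.41 with 27 libraries and 0.0763 with 26. With caged food 60 min replicate 2 kept in the fit, the call at 240 min was lost without several single libraries: leaving out any 1 of the 3 fasted libraries, or refed 240 min replicate 1 or 3, gave limma adjusted p between 0.0554 and 0.158. Without refed 240 min replicate 3 the log2 fold change was 2.70.

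The ratio of Saa1 to Saa2 had a median of 3.90 over the 27 libraries and ran from 1.74 in refed 120 min replicate 3 to 6.23 in caged food 60 min replicate 3. Over the same libraries their log2 values had a Pearson r of 0.966, and 0.949 without caged food 60 min replicate 2. These libraries share their groups and the 2 genes share near-identical sequence, so the correlation is a description.

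Saa4, the constitutive form, lies at chr7:46727998-46732603 (minus strand), with 7893 bases between it and Saa1. It measured 7908, 7623 and 6321 normalised counts in the fasted livers, 3769, 9734 and 10406 after 60 min of refeeding and 12959, 34608 and 13548 after 60 min of caged food. In the other groups its values lay between 4045 and 13812. At 60 min the refed libraries lay below all caged food libraries. The refed minus caged food difference was -1.33 ± 0.36 (log2), limma adjusted p = 0.0165 with 27 libraries, and -0.87 ± 0.34, adjusted p = 0.12, with 26. Leaving out refed 60 min replicate 1, its lowest library, gave -0.86, limma adjusted p = 0.141.

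Saa3, which macrophages and fat cells are known to make, lies at chr7:46711998-46715700 (minus strand) and had the lowest level of the members. Its 27 values ran from 90 to 455 normalised counts, with 137, 166 and 172 in the fasted livers and 130, 162 and 147 after 240 min of refeeding. It was called in no comparison with 27 or 26 libraries. Without caged food 60 min replicate 1, and with the high replicate 2 kept, refed minus caged food at 60 min was -1.29 (limma adjusted p = 0.0332). Its log2 fold change at refed 240 min was -0.11 ± 0.36, limma adjusted p = 0.857.

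The orosomucoids, or alpha-1-acid glycoproteins, are plasma carriers of lipophilic molecules. Orm1 lies at chr4:63344560-63348163 and Orm2 at chr4:63362449-63365878 (both plus strand), with Orm3 between them. The coding sequences of Orm1 and Orm2 are 89.9% identical and share 9.79% of 50-base windows, so their counts carry the same reservation as those of Saa1 and Saa2.

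Orm2 measured 165, 180 and 182 normalised counts in the fasted livers. After refeeding it measured 368, 211 and 356 at 30 min, 271, 273 and 295 at 60 min, 146, 284 and 263 at 120 min, and 843, 894 and 2427 at 240 min. With caged food it measured 136, 172 and 321 at 30 min, 212, 13425 and 343 at 60 min, 182, 182 and 118 at 120 min, and 167, 1141 and 177 at 240 min. All refed libraries of 30, 60 and 240 min lay above all fasted ones, and the fasted libraries differed little among themselves. Orm2 rose by 2.79 ± 0.93 (log2) at refed 240 min, limma adjusted p = 0.0309 with 27 libraries and 0.000307 with 26. With caged food 60 min replicate 2 kept in the fit, leaving out any 1 fasted library, or refed 240 min replicate 1 or 3, gave limma adjusted p between 0.0514 and 0.124, and without refed 240 min replicate 3 the value was 2.30.

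Orm1 measured 12967, 14047 and 11813 normalised counts in the fasted livers, 21474, 16598 and 21776 after 30 min of refeeding and 21254, 29695 and 25122 after 240 min. Caged food gave 12504, 18373 and 15276 at 240 min, and 14920, 82889 and 17425 at 60 min. The refed libraries of 240 min lay above all fasted and all caged food libraries of that time. The log2 fold change from fasted to refed 240 min was 0.96 ± 0.39, limma adjusted p = 0.0748 with 27 libraries, and 0.96 ± 0.21 with 26, adjusted p = 0.00145. The ratio of Orm1 to Orm2 had a median of 61.2 and its lowest value was 6.17, in caged food 60 min replicate 2.

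Hp, which binds free haemoglobin, was the most abundant member. It lies at chr8:109575128-109579172 (minus strand). It measured 180597, 202286 and 200728 normalised counts in the fasted livers, 210927, 278222 and 249728 after 240 min of refeeding and 177892, 238727 and 188675 after 240 min of caged food. Caged food 60 min replicate 2 held 684335, and the other 26 libraries lay between 143700 and 278222. The log2 fold change from fasted to refed 240 min was 0.33 ± 0.30, limma adjusted p = 0.455, and 0.33 ± 0.17, adjusted p = 0.174, with 26 libraries. Every refed 240 min library lay above every fasted one. Hp was called in no comparison with 27 or 26 libraries. Without caged food 60 min replicate 3, and with the high replicate 2 kept, refed minus caged food at 60 min was -1.14 (limma adjusted p = 0.0138).

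Apcs encodes serum amyloid P, a pentraxin and a main acute phase protein of mice, and lies at chr1:172893961-172895041 (minus strand). It measured 1868, 2204 and 2017 normalised counts in the fasted livers. After refeeding it measured 3215, 2917 and 3048 at 30 min, 2011, 2539 and 2713 at 60 min, 2632, 3059 and 3195 at 120 min, and 4788, 9117 and 5793 at 240 min. With caged food it measured 4680, 2293 and 2150 at 30 min, 3084, 14261 and 2214 at 60 min, 2519, 1347 and 3282 at 120 min, and 2111, 2798 and 1968 at 240 min. At 240 min the refed libraries lay above all fasted and all caged food libraries.

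Apcs rose by 1.64 ± 0.44 (log2) from fasted to refed 240 min, limma adjusted p = 0.00763 with 27 libraries and 0.000134 with 26. It was the 1 member that was also called against caged food at 240 min with all 27 libraries, by 1.48 ± 0.44, limma adjusted p = 0.0138, and 0.000336 with 26. The call against fasted held when each library of the comparison was left out in turn, with log2 values from 1.38 to 1.84 and limma adjusted p up to 0.0465. Without refed 240 min replicate 2, its highest library, the difference from caged food was 1.22, adjusted p = 0.0765.

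Lcn2 encodes a secreted lipocalin that binds bacterial siderophores and so withholds iron, and lies at chr2:32384633-32388252 (minus strand). It measured 281, 289 and 258 normalised counts in the fasted livers. After refeeding it measured 632, 411 and 2138 at 30 min, 397, 623 and 512 at 60 min, 304, 578 and 427 at 120 min, and 1148, 4616 and 4200 at 240 min. With caged food it measured 574, 470 and 320 at 30 min, 563, 32456 and 808 at 60 min, 534, 470 and 452 at 120 min, and 619, 1508 and 317 at 240 min. The fasted libraries were the 3 lowest of the 27, so every refed and every caged food library lay above them. Lcn2 rose by 3.35 ± 0.93 (log2) at refed 240 min, limma adjusted p = 0.0107 with 27 libraries and 6.08e-05 with 26. That call held when each library of the comparison was left out in turn, with log2 values from 2.99 to 3.99.

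Il1r1 encodes the signalling receptor for interleukin-1 and is the 1 member of the 10 that is not a secreted plasma protein. It lies at chr1:40225080-40317257 (plus strand). It measured 2170, 2240 and 1713 normalised counts in the fasted livers. After refeeding it measured 2228, 3590 and 2736 at 30 min, 1766, 2569 and 2357 at 60 min, 2697, 2045 and 1903 at 120 min, and 1180, 1880 and 1468 at 240 min. With caged food it measured 2195, 2509 and 2482 at 30 min, 3744, 7393 and 3301 at 60 min, 1652, 2241 and 1448 at 120 min, and 1575, 2158 and 1625 at 240 min. Among the refed groups the libraries of 240 min lay below all those of 30 min, and all caged food libraries of 60 min lay above all fasted and all refed libraries of that time.

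Il1r1 fell by 0.92 ± 0.24 on the log2 scale from refed 30 min to refed 240 min, limma adjusted p = 0.0082 with 27 libraries and 0.00147 with 26, a comparison in which 22.8% of all genes were called. Without refed 30 min replicate 2 the value was -0.74, adjusted p = 0.0549, and without refed 240 min replicate 1 it was -0.75, adjusted p = 0.0618. At 60 min its refed minus caged food difference was -1.03 ± 0.24, limma adjusted p = 0.00661 with 27 libraries, and -0.67 ± 0.22, adjusted p = 0.0568, with 26. Against fasted, caged food at 60 min gave 1.15 ± 0.24, limma adjusted p = 0.0467 with 27 libraries, and 0.79 ± 0.22, adjusted p = 0.185, with 26. That call was also lost without any 1 of the 3 fasted libraries or without caged food 60 min replicate 1 (adjusted p from 0.0609 to 0.292). The SAA, orosomucoid and lipocalin genes were not called in that comparison.

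**Figure D2:**
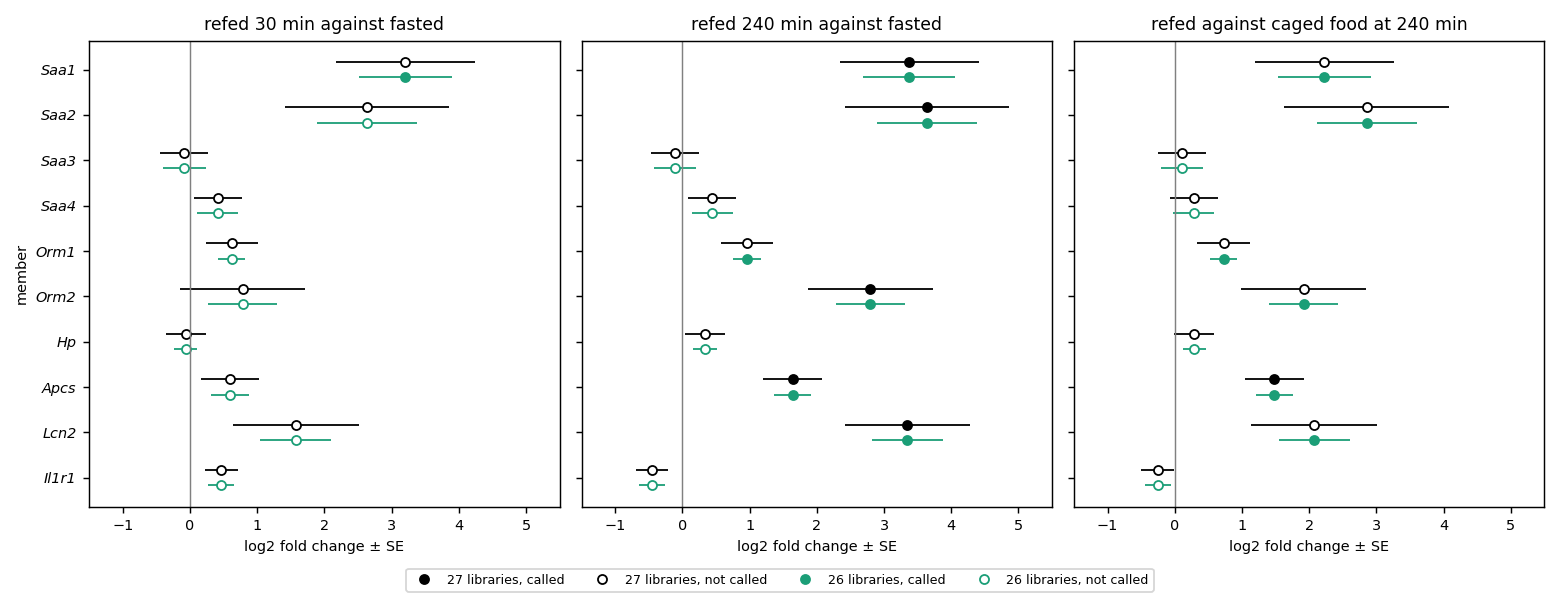
Log2 fold change ± SE of each member at refed 30 min and refed 240 min, both against fasted, and between refed and caged food livers of 240 min, with 27 libraries (black) and without caged food 60 min replicate 2 (green). Filled points were called by limma: 5 members at refed 240 min against fasted with 27 libraries and 6 with 26.

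Refed and caged food livers of the same time were compared next. At 30 and 120 min no member was called with either set of libraries, where 0.276% and 11.3% of all 15932 genes were with 27 libraries and 0.296% and 12.2% with 26. At 60 min Saa4 and Il1r1 were called lower in refed livers with 27 libraries, 2 of 10 against 4.18% of all genes called lower and 10.9% called in either direction, and neither passed with 26, where 9.08% of all genes were called. At 240 min, where 27% of all genes were called (28.4% with 26 libraries) and 14.6% were called higher, Apcs alone of the members passed with 27 libraries. With 26 libraries 6 of the 10 passed, against 15.3% of all genes called higher: Saa1 (2.23 ± 0.69, limma adjusted p = 0.0179), Saa2 (2.85 ± 0.74, 0.00571), Orm1 (0.73 ± 0.21, 0.0112), Orm2 (1.92 ± 0.51, 0.00701), Apcs and Lcn2 (2.08 ± 0.53, 0.0048). The library left out was picked for its high values in these members, so this count and the share of all genes are not evenly comparable.

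Only in Orm1 and Apcs did the refed libraries of 240 min all lie above all caged food libraries of that time, 2 of 10 members against 21.3% of all genes. In the other 8 members the groups overlapped. Caged food 240 min replicate 2 was the highest of its group in all 10 members, with 7898 for Saa1, 1861 for Saa2, 1141 for Orm2 and 1508 for Lcn2. Without it, the differences were 3.20 for Saa1 (limma adjusted p = 0.036), 3.81 for Saa2 (0.04) and 2.82 for Orm2 (0.039), while Lcn2 (2.66, 0.0666) and Orm1 (0.86, 0.167) did not pass.

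Averaged over the 4 times, no member was called between refed and caged food with 27 libraries, where 31.3% of all genes were called (32.3% with 26). With 26 libraries, Saa1 was higher in refed livers by 1.04 ± 0.35 (limma adjusted p = 0.0272), Saa2 by 1.41 ± 0.38 (0.00655), Orm1 by 0.35 ± 0.11 (0.0142), Orm2 by 0.77 ± 0.26 (0.0287) and Apcs by 0.47 ± 0.14 (0.0155), against 17.3% of all genes called higher. A limma F test asked whether the refed minus caged food difference varied over the times. Il1r1 passed it with 27 libraries (F = 6.44, adjusted p = 0.0324) and not with 26 (0.0728), as did Saa4 (5.62, 0.0491, and 0.159 with 26), while Apcs passed it with 26 (0.0374) and not with 27 (0.0618). Of all genes, 9.97% passed with 27 libraries and 10% with 26.

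**Figure D3:**
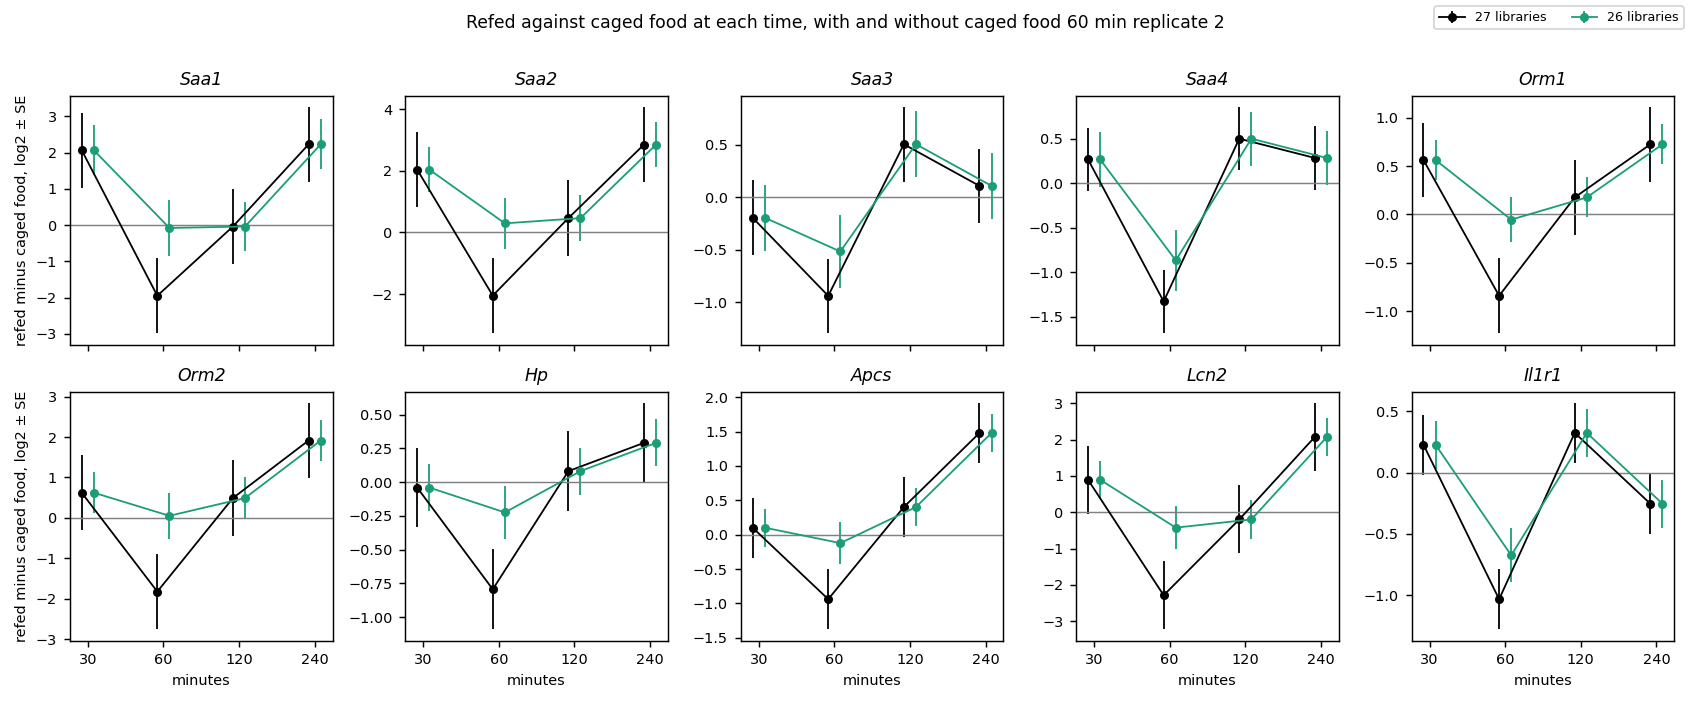
Refed minus caged food difference (log2 ± SE) of each member at 30, 60, 120 and 240 min, with 27 libraries (black) and 26 (green). Leaving out caged food 60 min replicate 2 moves only the 60 min points, which go from -1.95 to -0.08 for Saa1 and from -1.33 to -0.87 for Saa4, while at the other times the values stay and the error bars shorten.

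The conflicting labels bear on every result at 240 min. With both such libraries left out, the refed 240 min against fasted values were 2.72 for Saa1 (limma adjusted p = 0.106), 2.70 for Saa2 (0.169), 2.30 for Orm2 (0.127) and 3.06 for Lcn2 (0.0506), while Apcs still passed. The Apcs difference from caged food at 240 min was then 1.49 (adjusted p = 0.0657). With both grouped by the treatment label, none of the members was called against fasted at 240 min: Saa1 was 2.07 (limma adjusted p = 0.381), Saa2 1.82 (0.525), Orm2 1.51 (0.476), Lcn2 2.43 (0.26) and Apcs 1.16 (0.287). Under that grouping the count of all genes called in the comparison went from 3879 to 0. The refed minus caged food difference at 240 min then changed sign for Saa1 (-0.39), Saa2 (-0.80) and Orm2 (-0.65) and was 0.51 for Apcs (limma adjusted p = 0.823).

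Each refed group was set against the same 3 fasted livers. Against fasted, all refed libraries lay above all fasted ones in 7 of 10 members at 30 min, 4 at 60 min, 2 at 120 min and 7 at 240 min, against 11.7%, 15.1%, 18.2% and 22.2% of all genes. With 27 or 26 libraries no member was called against fasted at 60 or 120 min, where 11% and 14.1% of all genes were (11.7% and 15.3% with 26 libraries). In fits that held only the fasted group and 1 refed group, more members passed: Saa1, Saa2, Saa4, Orm1 and Apcs at 30 min (limma adjusted p from 0.00388 to 0.0402), Saa1, Saa2, Orm2 and Lcn2 at 60 min (0.00902 to 0.0127) and Apcs at 120 min (0.00486). Those fits called 392, 1197 and 2744 of all genes. The log2 fold change of Saa1 was 0.95 at 60 min and 0.35 at 120 min, and that of Lcn2 was 0.86 and 0.61. Averaged over the 4 times, no member was called between refed and fasted with 27 libraries, where 15% of all genes were. With 26 libraries Saa1 (1.97, limma adjusted p = 0.0153), Saa2 (1.91, 0.0287), Apcs (0.76, 0.0209) and Lcn2 (1.60, 0.0108) passed. In that fit 16% of all genes were called and 9.43% were called higher. From refed 30 min to refed 240 min Saa1 changed by 0.17 and was not called. With 26 libraries Orm2 rose by 2.01 (limma adjusted p = 0.00581), Apcs by 1.05 (0.00785) and Lcn2 by 1.77 (0.0166) over that span, where 24.4% of all genes were called, and with 27 none of these 3 passed (0.126, 0.0878 and 0.185).

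Caged food against fasted gave a call among the members at 60 min only, and only with 27 libraries. At 30, 120 and 240 min 0.0126%, 0.0377% and 0% of all genes were called with 27 libraries (0.0126%, 0.0755% and 0% with 26), and no member was called with either set. At 60 min 0.22% of all genes were called (0.0629% with 26 libraries), and with 27 Il1r1 was the 1 member among them. The other log2 fold changes at 60 min shrank when replicate 2 was left out, from 2.90 to 1.03 for Saa1, from 3.15 to 1.29 for Lcn2, from 2.49 to 0.62 for Orm2, from 1.18 to 0.37 for Apcs and from 0.68 to 0.11 for Hp. None of these was called with either set of libraries. With 27 libraries, all caged food libraries lay above all fasted ones in 3 members at 30 min and 7 at 60 min. At 120 and 240 min this held for 1 member each, and 1 other member lay below all fasted libraries at 120 min. Of all genes, 6.04%, 7.73%, 8.44% and 6.62% lay above at 30, 60, 120 and 240 min, and 7.66% lay below at 120 min.

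**Figure D4:**
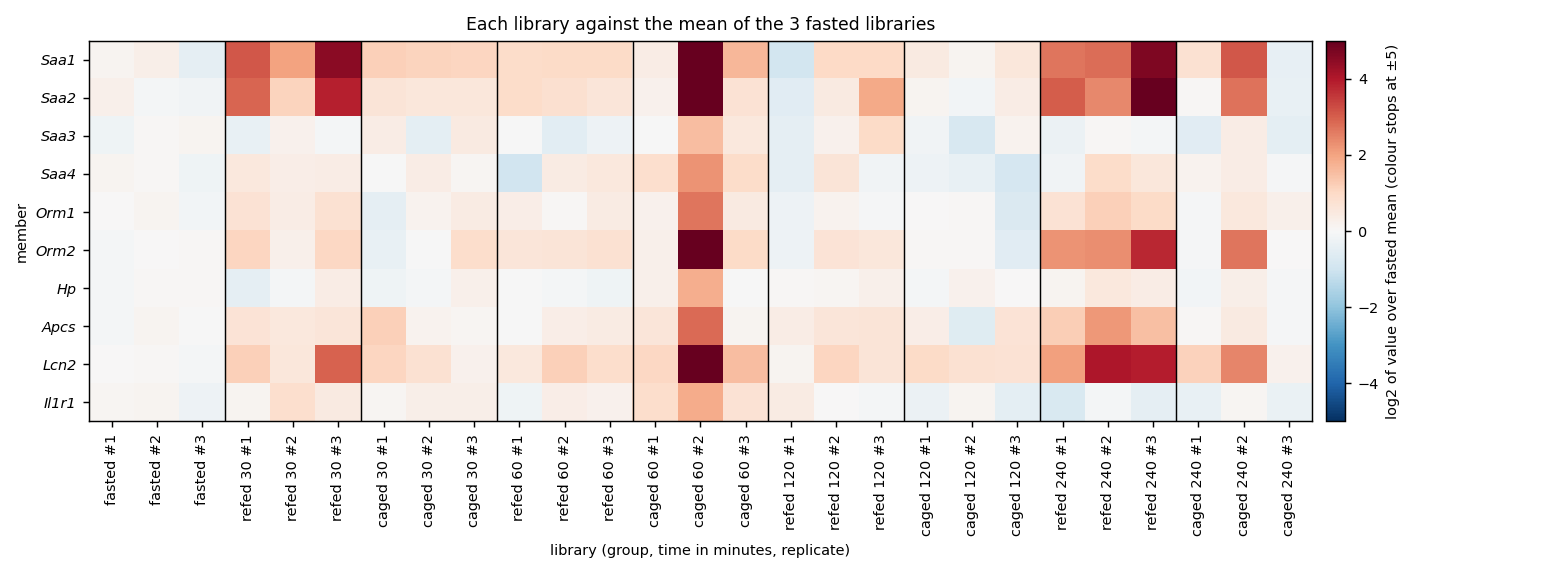
Log2 of each member's value over its mean in the 3 fasted livers, in each of the 27 libraries. Caged food 60 min replicate 2 has the darkest cells, in Saa1, Saa2, Orm2 and Lcn2. The same 4 genes are also raised in the refed 240 min libraries, refed 30 min replicates 1 and 3 and caged food 240 min replicate 2.

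The members differed widely in how far they ranged over the libraries. From the lowest to the highest library Saa2 spanned 272-fold, Saa1 191-fold, Lcn2 126-fold and Orm2 114-fold. Orm1 and Apcs each spanned 10.6-fold, Saa4 9.18-fold, Il1r1 6.27-fold, Saa3 5.06-fold and Hp 4.76-fold. The second highest library was refed 240 min replicate 3 for Saa1, Saa2 and Orm2, and refed 240 min replicate 2 for Saa4, Orm1, Hp, Apcs and Lcn2. It was refed 120 min replicate 3 for Saa3 and caged food 60 min replicate 1 for Il1r1.

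Levels were compared between members per kilobase of each gene's longest coding transcript. In the fasted livers Hp came first, with 144637 ± 8994 normalised counts per kilobase (SD, n = 3), then Orm1 with 16699.8 ± 1442, Saa4 with 3479 ± 404, Apcs with 2090.3 ± 173 and Saa1 with 1551 ± 395. Saa2 (440.2 ± 72.1), Il1r1 (351 ± 49.2), Lcn2 (302 ± 17.6), Orm2 (227 ± 11.99) and Saa3 (72.0 ± 8.51) were lower. The Saa3 transcript used has 2200 bases in 2 exons, against 609 bases in 4 exons for Saa1. Its level per kilobase, and so its place among the low members, depends on that choice. Within 1 SD, Apcs and Saa1, Saa2 and Il1r1, and Il1r1 and Lcn2 overlapped as neighbours in this order, and the other neighbours did not.

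After 240 min of refeeding the order per kilobase was Hp (183117 ± 25114), Orm1 (32719 ± 5452), Saa1 (19605 ± 16630), Saa2 (8667 ± 9974), Apcs (6762 ± 2333), Saa4 (4929 ± 1752), Lcn2 (3630 ± 2070), Orm2 (1791 ± 1161), Il1r1 (259 ± 60.5) and Saa3 (66.5 ± 7.28). Saa1 and Saa2 thus stood next after Orm1, with an SD near or above the mean. Neighbours from Orm1 to Orm2 in this order overlapped within 1 SD.

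The genes most like 5 of the members over the 27 libraries, by Pearson r of log2 values, were partly other members. For Saa2 they were Saa1 (0.966), Orm2 (0.916) and Lcn2 (0.901), for Orm2 they were Saa2, Lcn2 (0.915) and Orm1 (0.914), and for Lcn2 they were Orm2, Saa2 and Saa1 (0.899). For Hp they were Itih3 (0.879), Ifitm2 (0.873) and Hpx (0.864), and for Apcs Slc41a2 (0.882), Il13ra1 (0.857) and Itih4 (0.855). Without caged food 60 min replicate 2, r was 0.850 for Saa2 with Orm2, 0.821 for Saa2 with Lcn2, 0.824 for Orm2 with Lcn2 and 0.814 for Orm1 with Orm2. For Hp it fell to 0.739 with Itih3, 0.592 with Ifitm2 and 0.571 with Hpx. For Apcs it fell to 0.811 with Slc41a2, 0.753 with Il13ra1 and 0.758 with Itih4. For Il1r1 with Saa1, r was 0.357 over 27 libraries and -0.053 over 26. The libraries share their groups, so these values describe the set only.

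Other genes of the same pathways were counted from lists. Of 29 other positive acute phase genes, 2 rose and 3 fell from fasted to refed 240 min, where 12.9% of all genes tested were called higher and 11.4% lower. The list's median log2 fold change was 0.30 against 0.00 for all genes tested. The 4 of lowest p were Mt2, a metallothionein (-2.99 ± 0.37, limma adjusted p = 3.43e-06), Serpina10 (0.90 ± 0.19, 0.00141), Il1rn, the interleukin-1 receptor antagonist (-1.33 ± 0.33, 0.00462), and Serpina3m (0.69 ± 0.20, 0.0137). The same list gave 1 higher and 4 lower against caged food at 240 min (14.6% and 12.4% of all genes), and 0 either way at refed 30 min against fasted (1.31% and 0.326%). Of 12 negative acute phase genes, which fall in inflammation, 1 fell and none rose at refed 240 min against fasted (F12, -0.22 ± 0.08, adjusted p = 0.0481), with a median of -0.22. The median over the 10 members was 1.30.

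Of 19 genes of interleukin-6 and STAT3 signalling, 3 rose and 5 fell at refed 240 min against fasted, again beside 12.9% and 11.4% of all genes. Junb, an AP-1 subunit, fell by 1.56 ± 0.23 (limma adjusted p = 2.28e-05) and Pim1, a STAT target kinase, fell by 0.87 ± 0.18 (0.00101). Bcl3 rose by 1.27 ± 0.21 (8.05e-05) and Lifr, a receptor chain for leukaemia inhibitory factor, by 0.85 ± 0.14 (0.000134). At refed 30 min Cish, a STAT-induced inhibitor of cytokine receptors, rose by 3.10 ± 0.37 (2.72e-05) and Pim1 fell by 1.33 ± 0.18 (0.000183). No other gene of the list was called there, where 1.31% of all genes were called higher and 0.326% lower. Of 28 genes tested on the interleukin-1 and NF-kappaB list, 1 rose (Ikbkg, 0.72 ± 0.12, 0.000133) and 2 fell at refed 240 min, Nfkbia by 0.66 ± 0.12 (0.000283) and Il1rn, so 3 of 28 were called where 24.3% of all genes were. Nfkbia encodes the inhibitor of NF-kappaB and is itself an NF-kappaB target.

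Averaged over the times, refed against caged food gave 4 higher and 7 lower on the interleukin-6 list, 3 higher and 4 lower on the interleukin-1 list, 1 higher and 3 lower on the list of other positive acute phase genes and 0 higher and 2 lower on the negative list. Of all genes, 17.3% were called higher and 14.1% lower in this comparison. The lowest p-values were those of Nfkbia (-0.63 ± 0.06, limma adjusted p = 3.08e-08), Junb (-1.14 ± 0.11, 5.6e-08), Mt2 (-1.67 ± 0.19, 3.05e-07) and Lifr (0.65 ± 0.07, 3.17e-07).

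Marker lists of other cell types were measured in the libraries that stood apart. The share of all genes lying above both other libraries of a group was not computed, so such counts are descriptions. In caged food 60 min replicate 2, all 11 neutrophil markers lay above both other libraries of the group (summed level 2312 against 115 and 245, none at 0), with 734 for S100a9 against 16 and 37. All 10 Kupffer cell and macrophage markers did so too (40816 against 15041 and 18057), as did 9 of 10 B and T cell markers (1575 against 574 and 677) and 26 of 29 other positive acute phase genes. Cxcl1, a neutrophil chemokine, measured 6273 against 197 and 176. None of the 10 hepatocyte markers, among them Alb, Apoa1 and Ttr, lay above both other libraries (4839871 against 7403833 and 5567438). The 12 negative acute phase genes summed to 4607532 against 6860164 and 5092651 in the same libraries. Whether the hepatocyte markers were low apart from such genes was not tested. The part of the marked cell types in the members' values was not tested either.

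In caged food 240 min replicate 2, the library highest in all 10 members, 10 of 10 Kupffer cell markers (25729 against 15658 and 17729), 7 of 11 neutrophil markers (340 against 146 and 243, with 2 markers at 0) and 23 of 29 other positive acute phase genes lay above the rest of the group. Their part in the result was not tested, and these counts too have no share of all genes beside them. In the refed libraries of 240 min the summed Kupffer cell markers ran from 18548 to 21261 and the neutrophil markers from 250 to 324, against 15996 to 20425 and 216 to 407 in the fasted livers. In refed 30 min replicate 3, the highest of its group in 5 members, none of the 11 neutrophil and none of the 10 Kupffer cell markers lay above both other libraries. Refed 30 min replicate 1 held a summed level of 6553 for the 10 pancreas acinar markers, where replicates 2 and 3 held 360 and 386. The part of that tissue in the refed 30 min values was not tested.

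**Figure D5:**
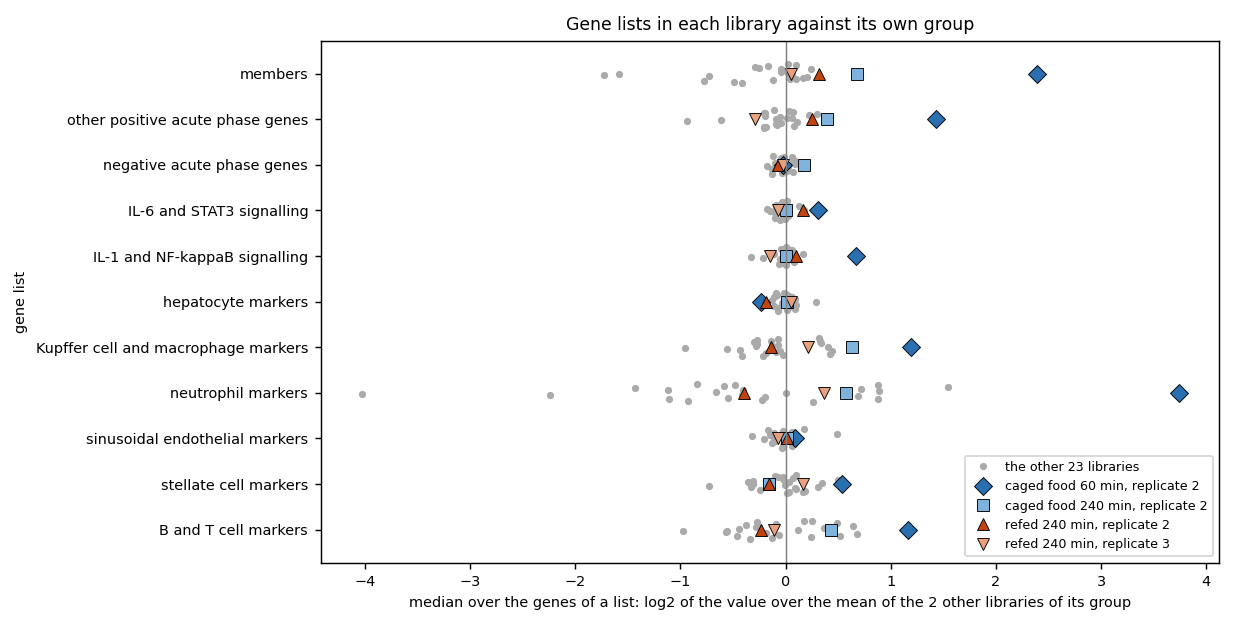
For each gene list and library, the median over genes of log2 of the value over the mean of the other 2 libraries of its group. Caged food 60 min replicate 2 (diamond) lies farthest right for the members, the other positive acute phase genes (1.43), the Kupffer cell and the neutrophil markers, and left of 0 for the hepatocyte markers.

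Among the marker lists, neutrophil and Kupffer cell markers gave 0 calls at refed 240 min against fasted, as did hepatocyte, B and T cell and pancreas acinar markers. In that comparison 24.3% of all genes were called and 11.4% were called lower. At an unadjusted p under 0.05, 1 neutrophil, 0 Kupffer cell, 2 hepatocyte, 0 B and T cell and 1 pancreas acinar marker passed. The 11 neutrophil markers together summed to only 216 to 407 in the fasted and 250 to 324 in the refed 240 min libraries. Of them 10 were tested, so the lack of calls among these low genes says little. Of the sinusoidal endothelial markers 2 of 10 fell (Oit3 by 0.51 ± 0.13, limma adjusted p = 0.00681), of the stellate cell markers 3 of 10 fell (Colec11 by 0.52 ± 0.17, 0.0288) and of 4 adipocyte markers tested 1 fell (Pnpla2, a lipase that hepatocytes also express, by 0.88 ± 0.12, 1.05e-05).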

How the data were processed

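Liver messenger RNA was extracted with RNeasy columns and made into stranded TruSeq libraries, per the labels' protocols. Reads were aligned with STAR 2.4.0a to mm10 and counted with featureCounts 1.4.5-p1, per the submitters' processing notes. The authors deposited 1 table of normalised values. These deposited values are a normalised score: by the pattern of the values, the authors divided read counts by 1 factor per library and rounded them to whole numbers. No count model was therefore used. The design text names 60 samples, of which 27 are analysed here.

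Values were taken as log2(value + 1). A gene was kept where 3 or more libraries reached 10 normalised counts (15932 of 45706). A limma fit with 9 group means and a mean-dependent prior spread gave moderated tests, adjusted by the Benjamini-Hochberg method over all genes, and an adjusted p under 0.05 was called. A fold change on this scale understates the change of low genes. The 27-library fit is the one planned. In the 26-library fit, added after seeing the data, caged food 60 min replicate 2 was dropped and 15889 genes passed the filter. In the fits of all groups, the p-values measure the spread between libraries of a group, shared over the 9 groups of 3 libraries. Leaving out a library of 1 group therefore changes the p-values of the other comparisons too.

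The 10 members and the lists were chosen with earlier results of these data known. From each list up to 4 genes of lowest p are named, and for likeness the 3 genes of highest Pearson r with a mean of at least 50 (for Saa2, Orm2, Hp, Lcn2 and Apcs). The lists hold hepatocyte, Kupffer cell and macrophage, neutrophil, sinusoidal endothelial, stellate cell, adipocyte, pancreas acinar and B and T cell markers, other positive and negative acute phase genes, and genes of interleukin-6 and interleukin-1 signalling. Coordinates are from GENCODE M21 and promoter windows from RefSeq (GRCm38.p6). Tools were Python 3.11.15, pandas 2.3.3, Biopython 1.88, R 4.3.3 and limma 3.58.1, and the fit was tested on simulated data. Alternatives were another pseudocount, no filter, quantile normalisation, a replicate block, fewer groups, library weights and left-out libraries.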

Additional observations from a re-analysis of the deposited data

Results flagged for a closer look

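The refed minus caged food difference varied over the 4 times, by a limma F test adjusted over all genes, in 2 members, in 5 of 19 genes of the interleukin-6 list, in 3 of 28 of the interleukin-1 list and in 3 of 29 other positive acute phase genes, where 9.97% of all genes passed. Of these, the members and the 7 list genes that the naming rule covers are given. The adjusted p was 0.0324 for Il1r1 and 0.0491 for Saa4. It was 8.91e-05 for Cish, 0.0151 for Junb and 0.0327 for Lifr on the interleukin-6 list, 0.00141 for Nfkbia and 0.0370 for Ikbkg on the interleukin-1 list, and 1.83e-05 for Mt2 and 0.0442 for Mt1 on the list of other positive acute phase genes. Leaving out each library in turn gave adjusted p from 0.0134 to 0.0879 for Il1r1, which did not pass without refed 60 min replicate 1, caged food 60 min replicate 2, refed 120 min replicate 1 or caged food 120 min replicate 1. For Saa4 it gave 0.0321 to 0.166. Without caged food 60 min replicate 2 the adjusted p was 0.0728 for Il1r1 and 0.159 for Saa4.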

How the results depend on the processing

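The number of genes called is given for each comparison with its alternatives, then the range when each library of the comparison was left out in turn. Refed 30 min against fasted gave 260: 759 with library weights, 103 with the 2 conflicting libraries grouped by the treatment label, 172 without the libraries standing apart, 392 with only the groups compared, and 89 to 200. Refed 60 min gave 1754: 901 by label, and 1132 to 1556. Refed 120 min gave 2243: 4520 with weights, 768 by label, and 1501 to 1838. Refed 240 min gave 3879: 0 by label, and 2586 to 3405.

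Caged food 30 min against fasted gave 2: 67 with weights, 1 by label, 43 without libraries standing apart, 1 with only the groups compared, and 2 to 5. Caged food 60 min gave 35: 14 with no filter, 19 with quantile normalisation, 20 with the replicate block, 20 without the conflicting libraries, 3 by label, 15 without libraries standing apart, 0 with only the groups compared, and 2 to 34. Caged food 120 min gave 6: 121 with weights, 0 by label, 0 without libraries standing apart, 0 with only the groups compared, 12 with caged food 60 min replicate 2 left out of the spread, and 0 to 9. Caged food 240 min gave 0: 1 with no filter, 1 by label, and 0 to 0.

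Refed against caged food at 30 min gave 44: 88 with weights, 4 by label, 134 without libraries standing apart, 20 with only the groups compared, and 8 to 31. At 60 min it gave 1738: 908 by label, 478 with only the groups compared, and 1210 to 1700. At 120 min it gave 1797: 3303 with weights, 376 by label, and 1112 to 1504. At 240 min it gave 4303: 1 by label, and 3041 to 4011. Over the times it gave 4990: 1656 by label, and 4536 to 5131. Refed against fasted over the times gave 2382: 4240 with weights, 247 by label, and 1220 to 2467, and caged food against fasted over the times gave 0, and 0 to 1. Refed 240 against 30 min gave 3631: 76 by label, and 2418 to 3183. Caged food 240 against 30 min gave 50: 27 with no filter, 18 with the replicate block, 185 with weights, 7 without the conflicting libraries, 24 by label, 209 without libraries standing apart, 8 with only the groups compared, and 9 to 52. The F test gave 1588: 2741 with weights, 43 by label, and 1040 to 1664. The cause of these shifts was not tested.

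Grouping by the treatment label turned the refed against caged food difference at 240 min to -0.39 for Saa1, -0.80 for Saa2 and -0.65 for Orm2, and over the times to -0.078 for Saa1, -0.086 for Saa2, -0.012 for Orm1 and -0.34 for Orm2. Calls were also gained in refed against caged food at 60 min, with replicate 2 kept, all lower in refed livers. Without caged food 60 min replicate 1, Saa3, Orm1 and Lcn2 passed (limma adjusted p = 0.0332, 0.0412 and 0.0291). Without caged food 60 min replicate 3, Hp, Apcs and Lcn2 passed (0.0138, 0.0311 and 0.0494). For all genes, the range of calls when 1 library was left out is given above. With only the groups compared, Saa4 and Il1r1 at 60 min (refed against caged food) had adjusted p of 0.198 and 0.109. With no filter, Saa2 and Orm2 at refed 240 min against fasted had adjusted p of 0.0565 and 0.0547. The replicate numbers showed no pairing (mean correlation of deviations -0.00944 over 108 same-numbered pairs, 8 of 27 libraries closest to their own number), and the replicate block and a pseudocount of 5 changed no call of a member. Depth was lowest in caged food 240 min replicate 3, at 25557102 estimated reads.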

Other observations

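The genes most like Saa3 over the 27 libraries were Pld4 (Pearson r = 0.845), C1qb (0.812) and Cd5l (0.810), which macrophages are known to express. Over 26 libraries, without caged food 60 min replicate 2, these values were 0.737, 0.680 and 0.691. Saa3 was not among the members for which likeness was planned and was chosen after its values were seen. Its r with Saa1 was 0.464 over 27 libraries and 0.159 over 26, without caged food 60 min replicate 2, and its r with Hp was 0.631 and 0.267. These correlations are descriptions over libraries that share groups, and no test was made.

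The ratio of Lcn2 to Saa1 had a median of 0.275 over the 27 libraries. It was lowest, at 0.0798, in replicate 1 of refed 30 min, and highest, at 0.730, in replicate 2 of refed 240 min. The difference between the times was not tested.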
